A study of Homo sapiens with 3 samples.

Results

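The genes described here carry glucose into the cell, break it down to lactate, route part of it through the pentose phosphate pathway, or answer to low oxygen. They comprised 44 listed genes, and every probe set that names only 1 of them was taken: 71 of the 22277 probe sets on each array, covering 41 of the 11963 genes so named on the array. Of the 71 probe sets, 3 are manufacturer control probe sets for GAPDH. No probe set in the annotation used names SLC16A1, SLC16A3 or CA9 alone, and these are not analysed here. A gene was compared when at least 1 of its probe sets had a mean signal of 117 or more over the 3 arrays, which is the pooled median signal. This held for 34 of the 44 genes, each then represented by the probe set with its highest mean signal, out of 6745 genes so treated in all.

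RH30 is an established cell line of alveolar rhabdomyosarcoma, a childhood cancer of the skeletal muscle lineage. Cells had been exposed for 12 hours to 10 µM of an anti-gene PNA (peptide nucleic acid, which pairs with DNA through bases hung on an amide backbone) aimed at MYCN, to 10 µM of a mutated form of it described as inactive, or to nothing. Each condition was measured on 1 Affymetrix array, so no difference has a replicate error or a test, and 1 cell line limits what the arrays represent. The title and treatment text of the untreated array go against its source name, which is that of the mutated PNA array; the title was followed, and each direction between the 2 controls rests on that title. These are bulk measurements of total RNA, in which fewer cells with a transcript and less transcript per cell cannot be told apart.

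As background, glycolysis splits glucose into pyruvate, which lactate dehydrogenase reduces to lactate, and the pentose phosphate pathway draws off glucose 6-phosphate to make NADPH and ribose. Many genes of glycolysis are direct targets of MYC family factors and of hypoxia-inducible factor 1 (HIF-1), a dimer of HIF1A and ARNT. HIF-1 also induces genes outside glycolysis, among them VEGFA for vessel growth, BNIP3 and BNIP3L for mitophagy and PDK1, which inactivates pyruvate dehydrogenase.

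The array facts that touch these genes were as follows. The brightest MYCN probe set read 2202 in anti-MYCN PNA, 2804 in mutated PNA and 3313 in untreated cells. Of 8 listed myoblast and rhabdomyosarcoma markers, 7 passed the signal filter, among them MYOD1 at 7834, 6266 and 6715 in the same order. Of these 7, 4 lay above both controls and MYCN below, where 47.9% and 37.6% of all genes tested did. The summed signal of the 7 was 17121, 14601 and 16541. DES, the muscle filament protein desmin, read 1609, 923 and 911, and CDH15, the muscle cadherin, 943, 379 and 492, both more than 1.5-fold above the controls. MYOG, at 1024, 1238 and 748, and CHRNA1, at 3286, 2795 and 4176, lay between them. The filter was reached by 0 of 5 listed markers of epithelium, 0 of 5 of leukocytes, 0 of 4 of endothelium and 1 of 4 of fibroblasts. Summed marker signals were 133, 38.6 and 107 for leukocytes, 159, 58.7 and 59.8 for endothelium and 492, 434 and 399.8 for fibroblasts, and for epithelium 99.5 in anti-MYCN PNA and 91.1 in untreated cells with mutated PNA under both. All 24 poly-A spike probe sets were lower on the anti-MYCN PNA array, at a median ratio of 0.382 to mutated PNA, against 1.06 for mutated PNA over untreated. The highest gene signal was 50332 in anti-MYCN PNA cells, against 32467 in mutated PNA and 33282 in untreated cells, although the 2% trimmed mean was 500.2 on every array. The part of the markers, the spikes or the highest signals in the results below was not tested.

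By their brightest probe sets, the 14 glycolytic enzymes compared all lay above both control arrays in anti-MYCN PNA cells. Quantile normalization left 11 of 14 above and median scaling 10, where 45.5% and 32.3% of all genes were. HK2 and PGAM1 were nearly level, at 0.02 and 0.03 to the nearer control, and 2 of 3 ENO1 probe sets lay below both. PFKFB3, RPIA and HIF1A were dimmer, as were 5 of 7 hypoxia-induced genes (37.6% of all genes). Of these 5, P4HA2 was nearly level at −0.01 and the 2 BNIP3L probe sets disagreed. Over all 34 genes, 24 lay above both controls (70.6%), where 47.9% of all genes tested did, and 9 lay below both (26.5%), where 37.6% did. By within-array rank the gap was smaller: 19 of the 34 were brighter than on both controls (55.9%, against 45.1% of all genes). A dimmer rank was held by 12 (35.3%, against 39.8%). Quantile normalization also put 19 above and 12 below, where 45.5% and 39.6% of all genes were. Scaling every array to the same median, used below as an alternative, lowered all genes of the anti-MYCN PNA array relative to the controls: 32.3% of all genes then lay above both and 52.9% below both, and their median difference to the control mean was −0.12 in place of 0.06. A sign that changes under it alone therefore depends on the factor chosen for each array, and which factor is right was not tested. Few of the differences were large. Above both controls by at least 1.5-fold were GAPDH and PKM, 2 of 34 (5.88%), a smaller share than the 8.27% of all genes. Below both by at least 1.5-fold was PFKFB3 alone, 1 of 34 (2.94%, against 7.37% of all genes), and it also passed 2-fold (1.26% of all genes), though not with a pseudocount in place of the floor. No member was 2-fold above both controls, where 1.16% of all genes were. Between the 2 controls 95% of genes of like signal (genes were split by mean signal into 10 classes of equal size) lay within a range. It narrowed with signal, and 11 of 34 members were outside it against the nearer control (32.4%, where 21.6% of all genes were): 7 above and 4 below. All of the 7 but EPAS1 belong to the brightest class, with a range of 0.28. The median gene with a mean signal of at least 10000 stood 0.30 above the control mean. The 21.6% is therefore not a share of equally bright genes.

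**Figure D1:**
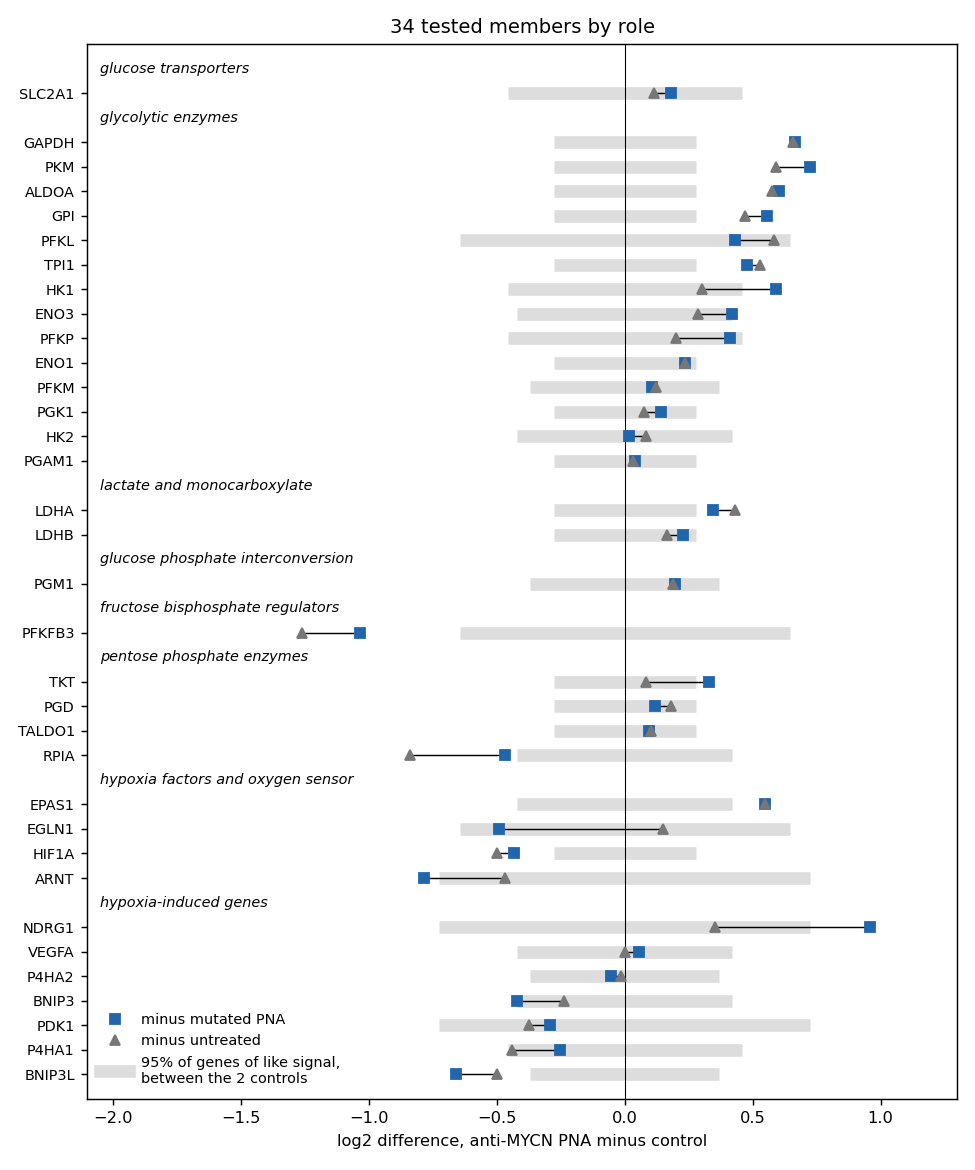
Anti-MYCN PNA minus mutated PNA (squares) and minus untreated (triangles), on the log2 scale, for each of the 34 genes compared, by role; grey bars hold 95% of genes of like signal between the 2 controls. GAPDH, PKM, ALDOA, GPI, TPI1, LDHA and EPAS1 lie to the right of their bar with both symbols, and PFKFB3, RPIA, HIF1A and BNIP3L to the left.

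Glucose enters by facilitated transport. SLC2A1, the ubiquitous transporter GLUT1, read 720.0 in anti-MYCN PNA, 636 in mutated PNA and 666 in untreated cells, log2 differences of 0.18 and 0.11 that lie within the 0.46 that 95% of genes of its signal reach between controls. A dim second probe set of SLC2A1 read 106, 28.1 and 26.9. The neuronal-type transporter SLC2A3 stayed under the filter, and its 3 probe sets disagreed: 14.9, 88.9 and 76.9; 16.2, 51.3 and 62.4; and 62.3, 41.6 and 45.1. No direction is given for it.

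Hexokinase and phosphofructokinase commit glucose to the pathway. HK1, the housekeeping hexokinase, read 850 in anti-MYCN PNA cells, against 564 in mutated PNA and 689 in untreated cells. HK2, the isoform that tumours often favour, read 975, 964 and 921, with differences of 0.02 and 0.08. Under median scaling it lay below both controls, at −0.12 to the nearer one, as the median gene did. A dim second HK2 probe set, short of the filter, lay below both controls at 61, 98.3 and 100. Among the 3 phosphofructokinase genes, the liver-type PFKL had the larger differences, with 328 in anti-MYCN PNA, 243 in mutated PNA and 219 in untreated cells, or 0.43 and 0.58 on the log2 scale. A second PFKL probe set also read higher, at 326, 196 and 208. PFKP, the platelet type, read 904, 681 and 786, and PFKM, the muscle type, 1904, 1768 and 1750. PFKM was thus nearest to the controls of the 3, at 0.11 and 0.12. It ranked 1816th within the anti-MYCN PNA array, against 1996th in mutated PNA and 2045th in untreated cells, and stood 0.14 above the nearer control under quantile normalization. Median scaling, which put the median gene at −0.12, put it 0.06 below. None of these 5 genes left the range seen between controls against both arrays. GPI, which turns glucose 6-phosphate into fructose 6-phosphate ahead of phosphofructokinase, read 4847 in anti-MYCN PNA, 3298 in mutated PNA and 3502 in untreated cells. Its differences of 0.56 and 0.47 exceed the control range of 0.28 for its signal, and they were nearly unmoved by quantile normalization, with 0.51 to the nearer control.

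Several enzymes from aldolase onward gave bright signals, and GAPDH, PKM, ALDOA and TPI1 stood furthest above the controls among them. GAPDH, which oxidises glyceraldehyde 3-phosphate, read 33961 in anti-MYCN PNA, 21406 in mutated PNA and 21541 in untreated cells. Its other 2 gene probe sets read 33102, 20739.6 and 21493, and 29727, 19752 and 20435, and all 3 manufacturer control probe sets for GAPDH were higher as well, such as the 5′ one at 32159, 22488 and 22199. All 6 probe sets put the anti-MYCN PNA array well apart while the controls lay close together. PKM, the pyruvate kinase of muscle and tumours, read 14412 in anti-MYCN PNA, 8718 in mutated PNA and 9566 in untreated cells, or 165% and 151% of the controls. A dim PKM probe set went the same way at 412, 293 and 285. ALDOA, the muscle aldolase, read 15079.6, 9934 and 10123, and TPI1, which interconverts the triose phosphates, 14177, 10184 and 9827. For these 4 genes the controls differed by at most 0.13, and the anti-MYCN PNA signal exceeded the nearer control by 0.48 to 0.66.

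Neighbouring steps of the same pathway differed far less. PGK1, the first enzyme to yield ATP, read 13055 in anti-MYCN PNA, 11821 in mutated PNA and 12404 in untreated cells. All 3 PGK1 probe sets past the filter lay above both controls, whereas a dim one short of it lay below, at 48.3, 108.5 and 84.7. PGAM1, the next enzyme, read 10749 in anti-MYCN PNA, 10444 in mutated PNA and 10513 in untreated cells, a log2 difference of 0.04 and 0.03. ENO1, the ubiquitous enolase, read 19992, 16971 and 16989 by its brightest probe set, but its other 2 lay below both controls, at 12796, 13248 and 13527, and at 367, 417 and 382. Its direction is therefore uncertain. ENO3, the muscle enolase, read 1277, 955 and 1047. The gap between enzymes does not depend on how an array is scaled by a single factor: PKM was further from mutated PNA than PGK1 by 0.58 on the log2 scale and further from untreated by 0.52, and GAPDH further than PGAM1 by 0.62 against each. Quantile normalization, which also takes account of how bright a gene is, kept the first gap at 0.61 and 0.53 but brought the second to 0.28 and 0.29. PKM and PGK1 have like mean signals of 10898 and 12427, whereas those of GAPDH and PGAM1 are 25636 and 10569, levels at which the median gene stood 0.48 and 0.12 above the control mean. Between the controls the same gaps were −0.06 for PKM and PGK1 and 0.00 for GAPDH and PGAM1.

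**Figure D2:**
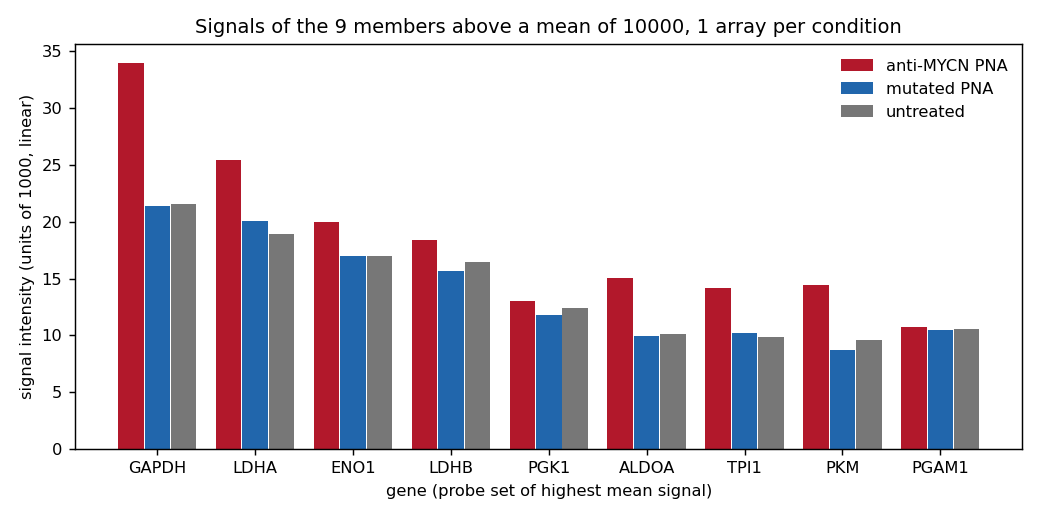
Signal intensity in units of 1000 (linear scale from 0) of the 9 members with a mean signal of at least 10000, as bars for the anti-MYCN PNA, mutated PNA and untreated arrays, 1 array each. GAPDH, PKM, ALDOA and TPI1 show a tall first bar over a level pair, whereas PGAM1 shows 3 bars between 10444 and 10749.

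Both lactate dehydrogenase genes lay above the controls, but quantile normalization put LDHB below both and LDHA between them, and median scaling put LDHB between them. LDHA, the subunit that favours lactate production, read 25456 in anti-MYCN PNA, 20064 in mutated PNA and 18899.9 in untreated cells, with differences of 0.34 and 0.43. LDHB, the subunit of oxidative tissues, read 18405, 15704 and 16417, and a second probe set read 17432, 15179.7 and 15017. PGM1, which links glucose 1-phosphate to glucose 6-phosphate, read 3296, 2877 and 2896, or 0.20 and 0.19 above the controls.

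Among genes this bright, a higher anti-MYCN PNA signal was common. Of the 161 genes tested with a mean signal of at least 10000, 138 lay above both controls (85.7%) with a median log2 difference of 0.30 to the mean of the controls, and 112 of them that are not ribosomal protein genes had a median of 0.20. At 15000 or more it was 81 of 83 genes, with a median of 0.42, or 0.41 over 38 genes without ribosomal proteins. Of the 9 members above 10000, 5 lay over the median of their class, near the even split that a median makes by definition. These were GAPDH and PKM at 0.66 each, ALDOA at 0.59, TPI1 at 0.50 and LDHA at 0.39. Only 6 of the 161 genes were further above the controls than GAPDH, 7 further than PKM and 14 further than ALDOA. ENO1, LDHB, PGK1 and PGAM1 lay under it at 0.24, 0.20, 0.11 and 0.04, and 135 of the 161 genes were further above the controls than PGAM1. Among the 4 members above 15000, LDHA joined ENO1 and LDHB under the median of 0.42, and GAPDH alone was over it. GPI, at a mean signal of 3882, belongs to the brightest of the 10 signal classes, whose median was 0.07, against its own 0.51.

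**Figure D3:**
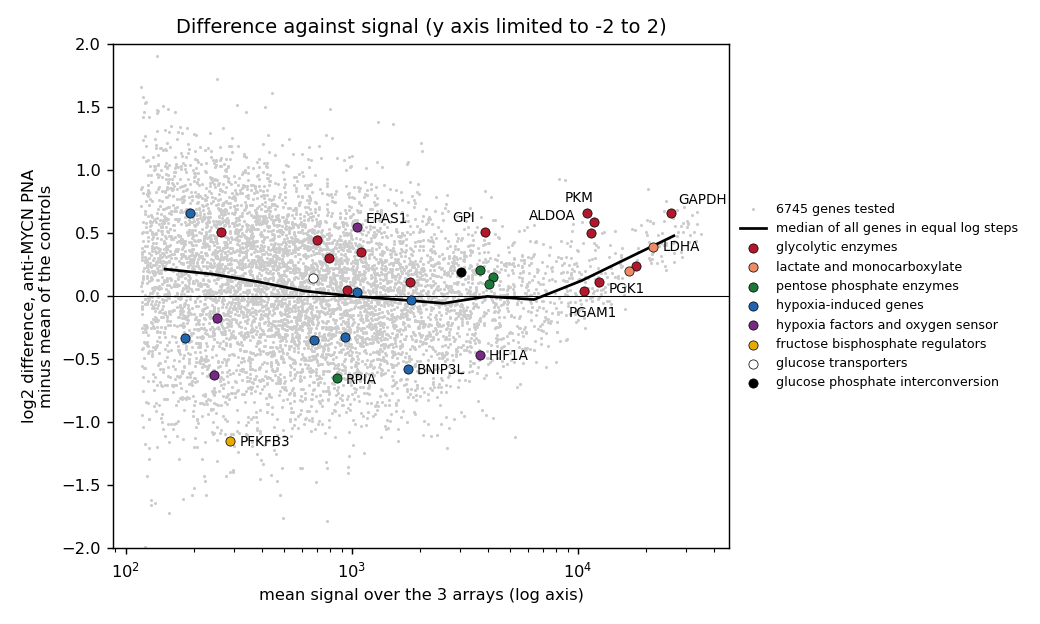
Anti-MYCN PNA minus the mean of the 2 controls on the log2 scale (y axis) against mean signal over the 3 arrays (logarithmic x axis) for 6745 genes, 4 of which lie beyond the y axis; the line is the median of all genes in 12 equal log steps, of 46 or more genes each. The line lies near 0 in the middle of the range and climbs to 0.48 in the last step, with PKM and ALDOA above it and PGK1 and PGAM1 below it.

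Ranking the signals within each array removes any scaling. GAPDH was the 50th brightest of 22215 gene probe sets on the anti-MYCN PNA array, against 87th on both control arrays. PKM ranked 233rd in anti-MYCN PNA, against 385th in mutated PNA and 331st in untreated cells. ALDOA ranked 224th, against 322nd and 314th, TPI1 237th, against 314th and 322nd, and GPI 696th, against 1063rd and 1006th. The order was turned for 3 enzymes: ENO1 stood at 183 in anti-MYCN PNA, against 164 and 162, PGAM1 at 329, against 303 and 300, and PGK1 at 264, against 259 and 239. LDHB also ranked lower, at 189 against 182 and 175, and LDHA lay between the controls, at 131 against 113 and 137. Of the 14 glycolytic enzymes 11 had a brighter rank than on both controls and 3 a dimmer one; among all genes tested the shares were 45.1% and 39.8%. The 6 enzymes outside that class were all among the 11.

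Quantile normalization, which gives the arrays the same distribution, led to the same split. The glycolytic enzymes had a median log2 difference to the mean of the controls of 0.40 with arrays at the same trimmed mean and 0.33 under quantile normalization, against 0.06 and 0.04 over all genes. For the 8 enzymes in the brightest of the 10 classes the medians were 0.51 and 0.25, and for the 6 dimmer ones 0.33 and 0.36. PKM, ALDOA, TPI1 and GAPDH stayed above the nearer control by 0.41, 0.39, 0.31 and 0.17, while ENO1, PGAM1 and PGK1 lay below both controls. GAPDH and PKM then no longer reached 1.5-fold. Scaling every array to the same median moved the median of all genes to −0.12 and that of the glycolytic enzymes to 0.21, with 10 of 14 above both controls and 4 below.

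**Figure D4:**
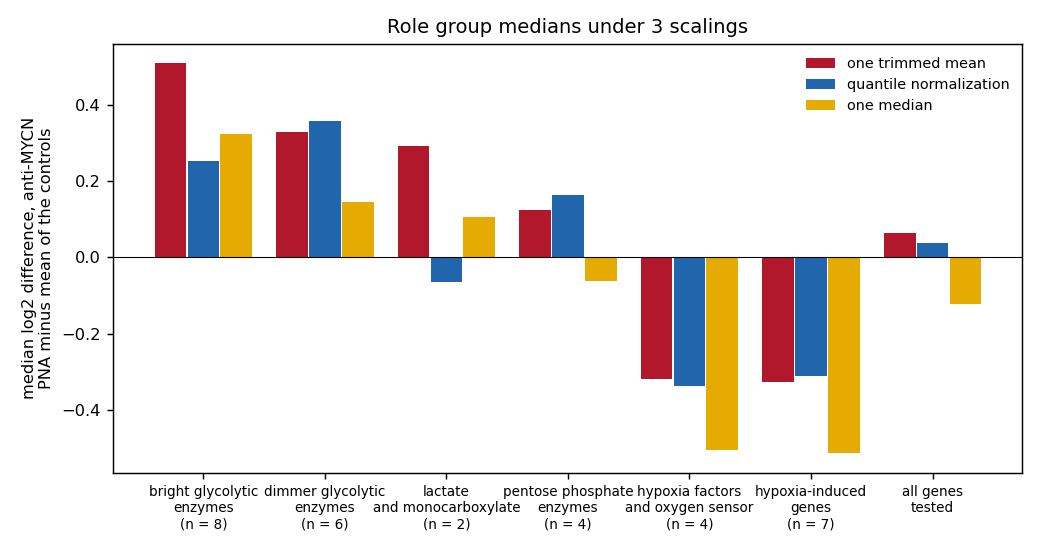
Group medians of anti-MYCN PNA minus the control mean (log2) for 6 role groups and for all genes tested, with the arrays brought to the same trimmed mean, quantile normalized, or brought to the same median. The bar of the 8 bright glycolytic enzymes is 0.51, 0.25 and 0.32 under the 3 scalings, that of the 7 hypoxia-induced genes −0.33, −0.31 and −0.51, and that of the 2 lactate dehydrogenase genes crosses 0 under quantile normalization.

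Among the 34 genes compared, PFKFB3 was furthest from the controls. It encodes the bifunctional enzyme that makes fructose 2,6-bisphosphate, a potent activator of phosphofructokinase. It read 160 in anti-MYCN PNA, 327 in mutated PNA and 382 in untreated cells, or 48.8% and 41.7% of the controls, with log2 differences of −1.03 and −1.26 against a control range of 0.64. Quantile normalization gave −1.13 to the nearer control and median scaling −1.21, while a pseudocount in place of the floor gave −0.94, short of 2-fold. The 2 probe sets of the heart-type PFKFB2 were under the filter and read 14.8, 75.4 and 62.1, and 11.4, 31.2 and 25.1. The first of them lay further from the controls than PFKFB3, by −1.69 and −1.41 with anti-MYCN PNA set to the floor. PFKFB4, the testis type, was dim on all arrays at 24.4, 14.9 and 8.5.

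LDHA lay above both controls at the same trimmed mean, but between them under quantile normalization and by within-array rank. Promoter windows are shown for it, for PKM and GAPDH, which read higher, and for PFKFB3, which read lower. Each is the stretch of 250 bases before a RefSeq start in GRCh38.p14, 5′ to 3′ on the strand of the gene, and capitals mark the searched motifs on either strand: ACGTG and GCGTG, the core of the hypoxia response element, and CACGTG, the E-box that MYC family dimers bind. An E-box also counts as an ACGTG match on each strand. PKM lies at chr15:72231191-72231440 on the minus strand, GAPDH at chr12:6535014-6535263, LDHA at chr11:18394313-18394562 and PFKFB3 at chr10:6202682-6202931, the last 3 on the plus strand. Where a gene has 2 windows, as LDHA and PFKFB3 do, that with more ACGTG matches is given.
PKM: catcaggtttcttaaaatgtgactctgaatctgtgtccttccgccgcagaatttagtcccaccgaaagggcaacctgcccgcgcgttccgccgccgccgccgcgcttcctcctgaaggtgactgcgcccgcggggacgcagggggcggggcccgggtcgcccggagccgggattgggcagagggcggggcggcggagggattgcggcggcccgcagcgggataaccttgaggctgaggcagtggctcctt
GAPDH: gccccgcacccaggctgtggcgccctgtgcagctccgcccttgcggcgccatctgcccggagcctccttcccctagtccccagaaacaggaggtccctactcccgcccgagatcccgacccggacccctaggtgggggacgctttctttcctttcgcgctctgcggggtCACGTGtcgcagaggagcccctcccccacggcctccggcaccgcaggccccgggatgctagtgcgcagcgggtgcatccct
LDHA: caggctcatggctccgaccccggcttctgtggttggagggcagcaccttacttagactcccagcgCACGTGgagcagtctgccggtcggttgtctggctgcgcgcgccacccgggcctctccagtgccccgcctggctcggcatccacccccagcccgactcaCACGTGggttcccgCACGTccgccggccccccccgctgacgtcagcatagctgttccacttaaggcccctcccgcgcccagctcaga
PFKFB3: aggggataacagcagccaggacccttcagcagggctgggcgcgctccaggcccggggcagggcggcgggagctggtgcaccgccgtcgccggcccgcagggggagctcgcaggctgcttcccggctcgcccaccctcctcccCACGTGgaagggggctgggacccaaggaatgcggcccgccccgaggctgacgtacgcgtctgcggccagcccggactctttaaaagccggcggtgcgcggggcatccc
The LDHA window held 2 E-boxes and 5 ACGTG matches in all, and those of GAPDH and PFKFB3 held 1 E-box each. None of the searched letters occurs in the PKM window. A window was given for 38 of the 44 genes, and ACGTG occurred in 20 of them (52.6%), GCGTG in 21 (55.3%) and the E-box in 7 (18.4%). Over all 27305 genes with a window the shares were 21.7%, 36.2% and 7.73%. A gene counted when any of its windows matched, and some genes have several windows. Counted per window, the shares were 33.8%, 33.8% and 10.3% of the 68 member windows. Over all 35116 windows they were 18.5%, 32.2% and 6.34%, so GCGTG was near its share. Besides the 3 genes shown, the E-box was present for ALDOA, ALDOC, HK2 and BNIP3. Genes with an E-box thus lay on both sides, GAPDH and ALDOA above the controls and PFKFB3 and BNIP3 below.

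Of the 4 pentose phosphate enzymes, 3 lay slightly above both controls and RPIA below, a split that within-array ranks and quantile normalization also gave. PGD, which makes NADPH by oxidising 6-phosphogluconate, read 4516 in anti-MYCN PNA, 4161 in mutated PNA and 3983 in untreated cells. The transaldolase TALDO1 read 4242, 3975 and 3951, and the transketolase TKT 4017, 3201 and 3791. All 3 were above both controls by 0.08 to 0.12 at the nearer control, within the control range of 0.28. RPIA, which isomerises ribulose 5-phosphate to the ribose 5-phosphate used for nucleotides, read 619 in anti-MYCN PNA, 855 in mutated PNA and 1106 in untreated cells. Its differences of −0.47 and −0.84 exceed the control range of 0.42, and the controls themselves differed by −0.37. The group median was 0.12, against 0.06 over all genes, and −0.06 under median scaling, against −0.12 over all genes. That scaling put PGD and TALDO1 below both controls, at −0.02 and −0.08 to the nearer one, and TKT between them.

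The transcription factors of the hypoxia response went in different directions. HIF1A, the oxygen-regulated subunit of HIF-1, read 2932 in anti-MYCN PNA, 3957 in mutated PNA and 4150.0 in untreated cells. The differences of −0.43 and −0.50 exceed the control range of 0.28, and the gene ranked 1172nd on the anti-MYCN PNA array, against 885th and 841st. EPAS1, which encodes the related HIF-2 alpha, read 1333 in anti-MYCN PNA and 911 on each control array, 0.55 above both; a dim probe set of it read 27.8, 54.9 and 20.2. ARNT, the shared partner, read 180 in anti-MYCN PNA, 310 in mutated PNA and 249 in untreated cells by its brightest probe set, within the control range of 0.72 against untreated. Another ARNT probe set read 166, 56.9 and 178, between the controls. EGLN1, the prolyl hydroxylase that marks HIF1A for degradation, read 230, 323 and 208 and lay between the controls.

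Of the 7 hypoxia-induced genes compared, 5 were below both controls (71.4%, against 37.6% of all genes) and 2 above (28.6%, against 47.9%). By within-array rank 4 were dimmer than on both controls and 2 brighter, where 39.8% and 45.1% of all genes were. Of the 7, only BNIP3L left the control range of its signal against the nearer control. The group median was −0.33 relative to the control mean, where all genes tested had 0.06. BNIP3L, a mitophagy receptor, read 1324 in anti-MYCN PNA, 2091 in mutated PNA and 1870.2 in untreated cells by its brightest probe set, beyond the control range. Its second probe set went the other way, at 1128, 940.3 and 852, so the direction is uncertain. BNIP3, its paralogue, was below both controls with both probe sets, at 798, 1068 and 940.2, and at 411, 439 and 457. P4HA1, a collagen prolyl hydroxylase, read 576, 687 and 782, while P4HA2 read 1793, 1859 and 1809 and was nearly level, and under quantile normalization it no longer lay below both. PDK1, the kinase that inactivates pyruvate dehydrogenase, read 156 in anti-MYCN PNA, 191 in mutated PNA and 202 in untreated cells. VEGFA was level by its brightest probe set, at 1067 in anti-MYCN PNA, 1025 in mutated PNA and 1066 in untreated cells, and lay below both under median scaling, at −0.11 to the nearer control, as the median gene did. Dimmer VEGFA probe sets were higher, at 564, 391 and 364, and at 154, 118 and 85.9, and 1 more was lower, at 64.2, 143 and 141. NDRG1, a stress-induced gene, read 250.1, 129 and 196; the controls differed by −0.60, more than anti-MYCN PNA from untreated (0.35). Taking the median over probe sets brought the group median to −0.12, and the value of BNIP3L then rested on both of its probe sets.

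Of the other members, 4 were too dim to compare besides SLC2A3, PFKFB2 and PFKFB4. ALDOC, the brain aldolase, read 112 in anti-MYCN PNA, 44.2 in mutated PNA and 35.1 in untreated cells, differences of 1.34 and 1.67 that are larger than those of PFKFB3. ENO2, the neuronal enolase, read 137, 87.6 and 91.6, and ADM, the hypoxia-induced peptide adrenomedullin, 89.8, 135 and 122. PGAM2, the muscle phosphoglycerate mutase, read 7.8, 2.8 and 6.2, under the floor of 23.4 on all arrays.

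Between mutated PNA and untreated cells the members differed little. Of the 34 genes 20 lay within 0.1 on the log2 scale, where the median absolute difference over all genes was 0.14. Many members are bright, and bright genes differed less between the controls. The range that holds 95% of genes was 0.28 in the brightest of the 10 signal classes and 0.94 in the dimmest. None of the 34 was 2-fold apart, where 0.371% of all genes were in each direction. EGLN1 was 1.5-fold higher in mutated PNA, with a difference of 0.64 (1 of 34, where 2.4% of all genes were), and NDRG1 1.5-fold lower (1 of 34, where 2.27% were). The group medians were −0.02 for glycolytic enzymes, −0.12 for pentose phosphate enzymes and −0.06 for hypoxia-induced genes, against 0.00 over all genes.

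Other genes around these pathways were mixed. For comparison, 47.9% of all genes tested lay above both controls and 37.6% below, and by at least 1.5-fold 8.27% and 7.37% did. Of 23 further glycolytic and pentose phosphate genes 8 were bright enough to compare, 3 above both controls and 3 below, and G6PC3, a glucose 6-phosphatase, alone passed 1.5-fold, at 1310.4 in anti-MYCN PNA, 775 in mutated PNA and 821 in untreated cells. Of 11 genes that carry pyruvate into the mitochondrion, use it there or control its use, 2 were above both controls and 5 below. DLD, the lipoamide dehydrogenase of pyruvate dehydrogenase and related complexes, read 1584, 2916 and 2851, and PDHX, a structural subunit of the same complex, 375, 646 and 612. Pyruvate carboxylase, encoded by PC, went the other way at 518, 268 and 209.7. The catalytic subunit gene PDHA1, chosen after its value was seen, read 4614, 3951 and 4117. Of 18 other hypoxia genes 9 were above both controls and 5 below, with a median of 0.01, and PLOD2, a collagen lysyl hydroxylase, alone passed 1.5-fold, at 422 in anti-MYCN PNA, 718 in mutated PNA and 721 in untreated cells.

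Among the 13 genes with more than 1 probe set past the filter, 10 had all of them on the same side of both controls, and ARNT, BNIP3L and ENO1 did not. GAPDH, ALDOA, TPI1, LDHB and EGLN1 were each read from an _x_at probe set, a class in which some probes can match other transcripts. GAPDH has many near-identical processed pseudogenes, so its signal is not that of 1 gene for certain. The number of arrays limits the precision of every value.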

How the data were processed

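Each of the 3 arrays is 1 condition and 1 sample, so no test or replicate error was possible. The deposited signal intensities, linear and 1 per probe set, came from the authors' MAS5 run in GCOS, as named in the submitters' processing notes; versions, detection calls and scaling factors are not given in the sources used here. MAS5 scales an array by 1 factor and does not align distributions. Of 22277 probe sets 62 are controls, and 19064 gene probe sets name 1 gene in GEO's platform annotation, 1043 several and 2108 none; 19052 were matched by Entrez identifier to current symbols of RefSeq GRCh38.p14, which also gave the promoters. A single factor per array set its 2% trimmed mean to the common value, a floor was placed at 23.4 (pooled 25th percentile), and log2 was taken. Genes needed a mean signal of at least the pooled 50th percentile (117). Calls were at 1.5-fold and 2-fold against both controls. Any member could be named, and other pathway genes where 1.5-fold from both controls. Members and lists were chosen with earlier results of these data known. The procedure was checked on simulated data. Software was matplotlib 3.10.9, scipy 1.17.1, pandas 2.3.3 and numpy 2.4.6 under Python 3.11.15.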

Additional observations from a re-analysis of the deposited data

How the results depend on the processing

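No paired analysis was possible because each condition has 1 array. The counts of members beyond a fold changed with several settings. Shares of all genes beyond a fold were taken at the main settings alone, so these counts have no background share at the other settings. Members at least 1.5-fold above both controls were 0 under quantile normalization and under median scaling, and 1 each with probe sets averaged by their median and with _x_at and _s_at ones left out, which kept 15 members. Those at least 1.5-fold below both were 6 under median scaling, 3 without a filter and 0 with a filter at the 75th percentile or without _x_at and _s_at probe sets; these last 2 settings left PFKFB3 out. Without a filter 1 member was 2-fold higher and 3 were 2-fold lower; none was 2-fold lower with the 75th percentile filter, with a pseudocount, without _x_at and _s_at probe sets or at a 3-fold threshold. Members above both controls were 13 of 35 under median scaling, where 32.3% of all genes were, and 8 of 15 without _x_at and _s_at probe sets, where 45.1% were. Those below both were 18 of 35 under median scaling, where 52.9% of all genes were. At the same trimmed mean 24 of 34 had been above and 9 below, where 47.9% and 37.6% of all genes were. Both counts thus moved in the direction of the shift of all genes, and by more than the shares of all genes did. The median of the bright glycolytic enzymes was 0.25 under quantile normalization, 0.32 under median scaling and 0.35 without _x_at and _s_at probe sets, and that of all glycolytic enzymes 0.21 under median scaling. The pentose phosphate median was −0.061 under median scaling, where that of all genes was −0.12, and −0.25 without _x_at and _s_at probe sets, which left 2 of its genes. The hypoxia-induced median was −0.52 under median scaling, with ADM now included, and −0.12 with the median over probe sets. Signals as deposited and no floor moved none of these counts or medians past the limits used. The comparison with genes of at least 10000 and 15000 in signal was added after seeing the data. Beyond fewer genes tested and that shift, the cause of each change was not tested.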

Other observations

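Glycogen metabolism, which shares glucose phosphates with glycolysis, was measured by 7 of 11 listed genes. Of these, 3 lay above both controls and 3 below, where 47.9% and 37.6% of all genes did. The median log2 difference of the 7 to the mean of the controls was −0.02. GYS1, the muscle glycogen synthase, read 1657 in anti-MYCN PNA, 979 in mutated PNA and 873 in untreated cells. PHKG2, a catalytic subunit of phosphorylase kinase, read 312, 137 and 157. These 2 of the 7 genes were at least 1.5-fold above both controls, where 8.27% of all genes were. GYS1 and PHKG2 stood 0.76 and 0.99 above the nearer control, and 0.78 and 0.91 under quantile normalization.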
